A study of Mus musculus with 4 samples.

Results

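The RNA of 10 subunits of the Polycomb repressive complexes was followed in mouse embryonic stem cells (mESCs) in which CTCF either could or could not carry O-GlcNAc, a sugar modification, at residue T668. The 10 genes, Ezh2, Ezh1, Eed, Suz12, Jarid2, Rnf2, Ring1, Bmi1, Pcgf6 and Cbx7, were taken by their symbols from a count table of 37620 genes, and each symbol matched 1 row. All 10 passed the filter on low counts that left 16264 genes to be tested, and the lowest count of any of them in any library was 422, so none passed through 1 group alone. Both lines came from CTCF-EGFP-AID mESCs, whose endogenous CTCF carries a tag that lets auxin trigger its degradation, and both were treated with auxin and carried CTCF from a transfected vector in its place. In WT_CTCF mESCs the vector encoded wild-type CTCF, and in MUT_CTCF mESCs it encoded CTCF mutated at T668, the O-GlcNAc-deficient form. Picked clones with a level of vector CTCF close to that of the endogenous protein were used, so a difference between clones and an effect of the mutation cannot be told apart. The cells grew on gelatin in serum medium with LIF, the cytokine that keeps mESCs undifferentiated. RNA was sequenced in 2 biological replicates of each line. The comparison asks whether the RNA of the Polycomb machinery differed when CTCF lacked this modification.

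The libraries held 40524694 to 40977464 counts, and the TMM factors that scale them lay between 0.994 and 1.01. Ctcf RNA, from the endogenous gene and the vector together, averaged 18485 normalized counts in WT_CTCF and 19058 in MUT_CTCF (log2 fold change 0.044, adjusted p = 0.499 by edgeR). All 10 markers of mESCs were expressed, each at 32.7 CPM per kb or more (counts scaled by library size, as CPM, per kilobase of exon), and their summed level was 3795 to 3898 in WT_CTCF and 3753 to 3754 in MUT_CTCF. Dppa5a weighed most in this sum, at 1553 and 1462 in WT_CTCF and 1408 in both MUT_CTCF libraries. The log2 fold changes of 6 of these 10 markers were above 0, so the sum does not stand for each marker. The summed level of 10 fibroblast markers was 26.6 to 27.8 in WT_CTCF and 29.0 to 31.9 in MUT_CTCF, with Lum at 0 counts in all 4 libraries. The summed level of 10 primitive endoderm markers was 145 in both WT_CTCF libraries and 137 to 142 in MUT_CTCF. Sparc weighed most in it, at 107 and 106 in WT_CTCF and 102 and 97.2 in MUT_CTCF. Of the 8 of these that could be tested, 4 had a log2 fold change above 0. In RNA from whole cultures, fewer cells of a type and less RNA per cell cannot be told apart.

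Polycomb proteins keep developmental genes silent in cells where they are not needed. They work as 2 families of complexes. Polycomb repressive complex 2 (PRC2) methylates histone H3 at lysine 27 and is built on EZH2 or EZH1, EED and SUZ12, joined in mESCs by JARID2. Polycomb repressive complex 1 (PRC1) ubiquitinates histone H2A through RING1B, the product of Rnf2, or RING1A, the product of Ring1. Each PRC1 also holds 1 of several PCGF proteins, such as BMI1 or PCGF6, and the canonical form holds a CBX protein such as CBX7, which binds the mark that PRC2 makes. In mESCs the complexes sit on the CpG-rich promoters of lineage regulators, and loss of EED removes the methylation mark.

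The promoters of the 4 genes that form the enzymatic core of PRC2 are shown because Eed was the member whose RNA passed the test and Ezh2, Ezh1 and Suz12 encode the proteins that EED joins. Each sequence covers the 250 bases before and the 50 bases after the annotated start, on the strand of the gene, from RefSeq (GRCm38.p6). Capitals mark a match to TTTCCCGC, TTTCGCGC, TTTGCCGC or TTTGGCGC, letters bound by the E2F cell cycle factors, of which EZH2 and EED are known targets, and both strands were searched. The sequences lie at chr7:89980927-89981226 (Eed, minus strand), chr6:47594981-47595280 (Ezh2, minus strand), chr11:101226414-101226713 (Ezh1, minus strand) and chr11:79992856-79993155 (Suz12, plus strand).
Eed: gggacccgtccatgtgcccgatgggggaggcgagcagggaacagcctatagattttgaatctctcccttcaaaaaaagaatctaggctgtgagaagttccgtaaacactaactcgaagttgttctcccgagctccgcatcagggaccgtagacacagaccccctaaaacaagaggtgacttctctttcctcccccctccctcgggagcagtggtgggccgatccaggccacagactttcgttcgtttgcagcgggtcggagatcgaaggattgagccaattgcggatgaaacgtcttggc
Ezh2: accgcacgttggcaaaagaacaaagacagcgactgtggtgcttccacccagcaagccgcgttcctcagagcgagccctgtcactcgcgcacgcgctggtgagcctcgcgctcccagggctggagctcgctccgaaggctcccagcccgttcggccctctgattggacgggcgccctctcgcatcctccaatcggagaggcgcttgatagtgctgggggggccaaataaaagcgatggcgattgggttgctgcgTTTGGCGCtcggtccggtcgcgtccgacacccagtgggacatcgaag
Ezh1: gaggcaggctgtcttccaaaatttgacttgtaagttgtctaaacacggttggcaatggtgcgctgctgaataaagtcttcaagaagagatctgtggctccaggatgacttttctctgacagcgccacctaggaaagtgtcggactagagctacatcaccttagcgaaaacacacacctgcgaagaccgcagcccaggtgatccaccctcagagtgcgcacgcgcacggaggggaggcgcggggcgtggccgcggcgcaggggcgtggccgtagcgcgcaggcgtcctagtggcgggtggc
Suz12: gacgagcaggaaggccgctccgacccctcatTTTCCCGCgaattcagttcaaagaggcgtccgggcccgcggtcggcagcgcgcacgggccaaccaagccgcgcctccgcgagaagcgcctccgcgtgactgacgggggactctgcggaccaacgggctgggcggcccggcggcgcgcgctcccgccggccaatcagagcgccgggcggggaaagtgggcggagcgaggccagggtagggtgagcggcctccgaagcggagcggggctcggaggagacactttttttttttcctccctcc
Ezh2 held TTTGGCGC at bases 4 to 11 counted from the start, and Suz12 held TTTCCCGC 219 to 212 bases before it. The other members, Eed and Ezh1 among them, had no such match in these windows, which says only that these letters are absent from them. Among all 32851 promoters of this length, 2.26% held a match. The CTCF motif matched none of the 11 promoters of the 10 members (Jarid2 has a pair of annotated starts), against 0.557% of all promoters. The members' promoters were rich in CpG, with 17 CpG sites in Eed, the fewest, and 41 in Suz12, the most, where the median promoter of the annotation held 7. The observed over expected CpG ratio was 0.759 in Eed, 0.999 in Ezh2, 0.882 in Ezh1 and 1.09 in Suz12, against a median of 0.384 over all promoters.

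Of the 10 subunits, Eed fell in MUT_CTCF mESCs, none rose, and 9 did not pass the test. A gene passed at an adjusted p under 0.05 by edgeR's quasi-likelihood test with Benjamini-Hochberg adjustment over all tested genes, where 253 genes (1.56%) were higher and 262 (1.61%) were lower, 3.17% in either direction. The 1 member that fell was thus 1 of 10, against 1.61% of all genes. Before adjustment, Eed alone of the 10 had a p under 0.05, where 15.3% of all genes did. No member met the rule in the study's methods (a fold change above 2 at an unadjusted p under 0.05), which 1.3% of all genes met. The median log2 fold change of the 10 members was -0.032, and over all tested genes it was 0.0034. The log2 fold changes of 8 members were below 0, and those of Ezh1 and Pcgf6 were above it. With 2 libraries per line, the smallest two-sided p that exact permutation can give is 0.33, and the p-values therefore lean on the spread edgeR shares between genes.

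**Figure D1:**
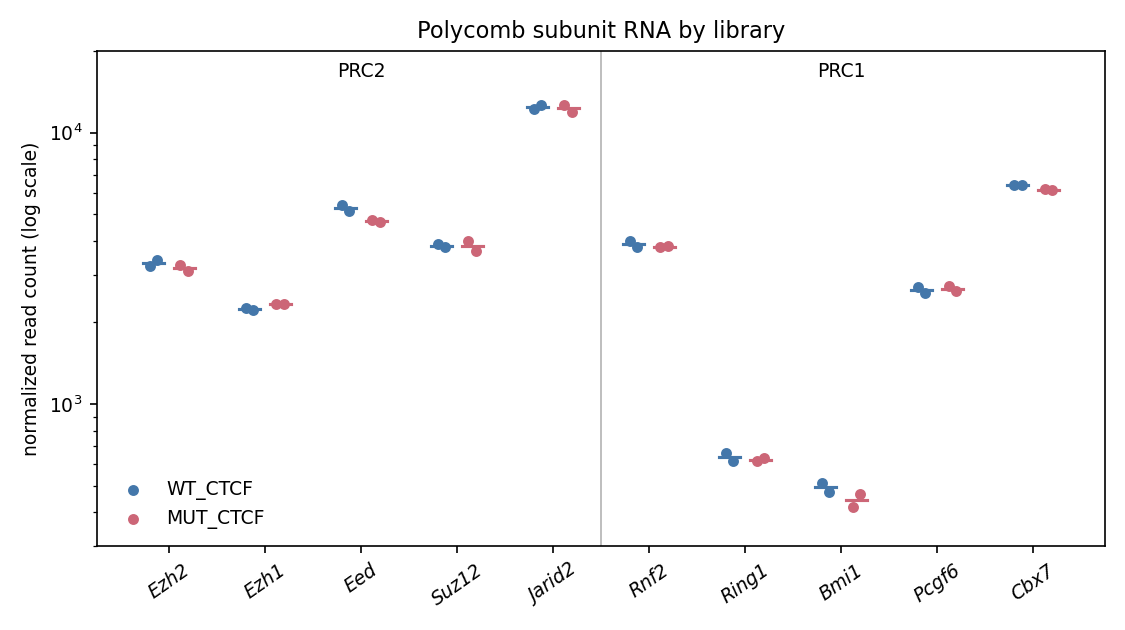
Normalized read counts (log scale) of the 10 Polycomb subunits in each library. Points are single libraries, blue for WT_CTCF and red for MUT_CTCF (2 each), and bars are group means. The MUT_CTCF points of Eed lie below its WT_CTCF points, while Jarid2 is between 11946 and 12647 and Ring1 and Bmi1 are at 662 or less in every library.

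Eed encodes the PRC2 subunit that binds methylated lysine 27 and stimulates the enzyme. The gene lies on the minus strand at chr7:97103166-97129493 of mm9, and it had 5390 and 5145 normalized counts in WT_CTCF and 4782 and 4675 in MUT_CTCF. Both MUT_CTCF libraries were below both WT_CTCF libraries, as in 22.3% of all tested genes. Its mean went from 5267 ± 173 to 4729 ± 75.7 (SD, n = 2), a change of -10.2% (95% interval -15.5% to -4.66%). Its log2 fold change of -0.16, with a standard error of 0.043, passed edgeR's quasi-likelihood test with Benjamini-Hochberg adjustment (adjusted p = 0.0304). The call depended on each library. Without WT_CTCF replicate 1 the log2 fold change was -0.12 with an adjusted p = 0.398 from the same test, without WT_CTCF replicate 2 it was -0.19 (adjusted p = 0.0594), without MUT_CTCF replicate 1 -0.17 (adjusted p = 0.382) and without MUT_CTCF replicate 2 -0.14 (adjusted p = 0.426). In these fits the lone library of a line is assumed to vary like the other line. The direction was the same in all 12 alternatives. These reuse the same libraries, and with no overlap between the lines, leaving 1 out could hardly turn it.

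The partners of EED in the PRC2 core differed by less than the test could call. Suz12, whose product holds the complex together, had 3873 and 3786 normalized counts in WT_CTCF and 3985 and 3667 in MUT_CTCF. The WT_CTCF libraries lay between the MUT_CTCF libraries, with means of 3830 ± 61.7 and 3826 ± 225 (SD, n = 2). Its log2 fold change was -0.0011 (95% interval -0.099 to 0.096, adjusted p = 0.996), and its sign turned under 4 of 12 alternatives. Ezh2, the main methyltransferase of dividing cells, had 3233 and 3406 normalized counts in WT_CTCF and 3262 and 3088 in MUT_CTCF. The groups overlapped, with a log2 fold change of -0.064 (95% interval -0.17 to 0.039, adjusted p = 0.625). Ezh1, the paralog of weaker activity, had 2270 and 2217 in WT_CTCF and 2340 and 2347 in MUT_CTCF. Both MUT_CTCF libraries of Ezh1 were above both WT_CTCF libraries, as in 22.3% of all tested genes, and its log2 fold change was 0.063 (95% interval -0.055 to 0.18, adjusted p = 0.688).

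Jarid2, which encodes a DNA-binding cofactor that helps place PRC2, had the highest counts of the 10 members. They were 12219 and 12647 after normalization in WT_CTCF and 12632 and 11946 in MUT_CTCF. The groups overlapped, and the log2 fold change was -0.017 with the narrowest interval of the 10 (95% interval -0.082 to 0.049, adjusted p = 0.878). Its sign turned without WT_CTCF replicate 2 and without MUT_CTCF replicate 2.

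None of the 5 PRC1 members passed the test. Rnf2, the gene of the main ubiquitin ligase of mESCs, had 3973 and 3775 normalized counts in WT_CTCF and 3776 and 3809 in MUT_CTCF. Ring1, its paralog, had 662 and 617 in WT_CTCF and 617 and 634 in MUT_CTCF. In both genes the groups overlapped, with a log2 fold change of -0.031 for Rnf2 (95% interval -0.13 to 0.065, adjusted p = 0.843) and -0.033 for Ring1 (95% interval -0.24 to 0.18, adjusted p = 0.932). Both signs turned without WT_CTCF replicate 1. Cbx7, the chromobox subunit that is typical of mESCs, had 6389 and 6421 in WT_CTCF and 6174 and 6139 in MUT_CTCF. Its MUT_CTCF libraries were both below its WT_CTCF libraries by a small margin, with a log2 fold change of -0.057 (95% interval -0.14 to 0.021, adjusted p = 0.539).

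Of the PCGF members, Bmi1, found in canonical PRC1, had 512 and 476 normalized counts in WT_CTCF and 418 and 469 in MUT_CTCF. Both MUT_CTCF libraries were lower, and the log2 fold change was close in size to that of Eed, at -0.15 (95% interval -0.40 to 0.088, adjusted p = 0.612). At its lower counts, the interval of Bmi1 was the widest of the 10 and held 0. Pcgf6, of the variant PRC1 that sits on germline genes in mESCs, had 2704 and 2567 in WT_CTCF and 2717 and 2611 in MUT_CTCF. Its groups overlapped and its log2 fold change was 0.016 (95% interval -0.096 to 0.13, adjusted p = 0.940), with the sign turned without WT_CTCF replicate 2 and without MUT_CTCF replicate 1.

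**Figure D2:**
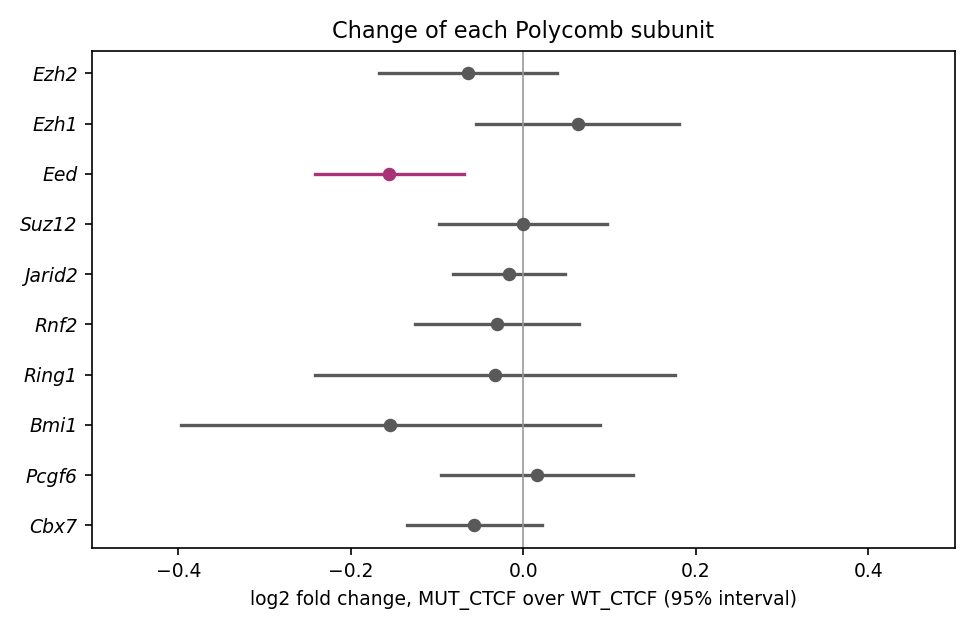
Log2 fold change of MUT_CTCF over WT_CTCF for each subunit, with its 95% interval from edgeR's quasi-likelihood fit (2 libraries per line). Only the interval of Eed, in purple, leaves out 0, and the widths run from 0.131 in Jarid2 to 0.486 in Bmi1.

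Apart from Eed, then, a change was not detectable with 2 libraries per line, and the intervals bound it. The widest, that of Bmi1, reached down to -0.40 on the log2 scale, and in the other 8 members the bounds lay between -0.24 and 0.18. In all, MUT_CTCF lay above WT_CTCF in 1 member (Ezh1), below it in 3 (Eed, Bmi1 and Cbx7) and overlapped it in 6. Of all tested genes, 22.3% lay above and 22.3% below.

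Some members share sequence with other genes. Bmi1 has a near copy, the pseudogene Gm5946 on chromosome X (146655263 to 146658127 of mm9), whose match covers 80.4% of the 3594 bases of the Bmi1 transcript at 95.7% identity. Gm5946 had 0 counts in all 4 libraries, and reads that fit both places equally well would not be counted as uniquely mapped. At the same limits (95% identity over 50 bases or more), 17.9% of Suz12, 5.44% of Pcgf6 and 5.29% of Jarid2 had a copy elsewhere, and the other members had none. Ezh2 shares 174 exon bases (2.81%) and Suz12 178 (3.6%) with antisense lincRNAs, Gm17629 and Gm16706. The strand setting of the counting is not given in the sources used here, so reads of these stretches cannot be told apart by strand.

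Per length, Eed had the highest RNA level of the 10 subunits and Bmi1 the lowest. Levels are CPM per kb of the union of each gene's exons, given as WT_CTCF and then MUT_CTCF means of 2 libraries. Eed stood at 58.2 ± 1.91 and 52.3 ± 0.837 (SD), followed by Cbx7 at 41.4 ± 0.146 and 39.8 ± 0.16. Jarid2 (31.4 and 31.0) and Rnf2 (31.4 and 30.7) came next and were the only neighbours in this order whose libraries overlapped. Suz12 ranged from 18.2 to 19.8 and Pcgf6 from 15.4 to 16.3 over the 4 libraries, and Ezh2 stood at 13.1 and 12.6. Ezh1 (7.39 and 7.72), Ring1 (4.84 and 4.73) and Bmi1 (3.05 and 2.74) were the lowest. The order was the same in both lines. It depends on the length used, since with the longest transcript in place of the exon union Ezh2 moved from rank 7 to rank 5 and Suz12 from rank 5 to rank 7.

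Within each paralog family the same member led in both lines. Ezh2 made up 64.0 ± 1.23% of the summed EZH level in WT_CTCF and 61.9 ± 0.967% in MUT_CTCF (SD, n = 2). Its level was 1.71 and 1.84 times that of Ezh1 in WT_CTCF and 1.67 and 1.58 times in MUT_CTCF, so both MUT_CTCF ratios were lower, by a margin smaller than the gap between the WT_CTCF libraries. Rnf2 made up 86.6 ± 0.151% of the RING1 pair in WT_CTCF and 86.7 ± 0.156% in MUT_CTCF, and the ratio of Rnf2 to Ring1 was 6.43 to 6.56 over the 4 libraries with the lines overlapping. With the longest transcript as length, the mean ratio of Ezh2 to Ezh1 was 2.35 in WT_CTCF and 2.15 in MUT_CTCF.

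Cbx7 made up 56.5% and 56.9% of the summed CBX level in WT_CTCF, against 55.0% and 54.9% in MUT_CTCF. These groups did not overlap, but Cbx6 in this sum shares 1175 exon bases with Npcd on the same strand. Cbx2 followed at 21.7 ± 0.0646% and 22.9 ± 0.0826%. Among the PCGF genes the level was led by Pcgf2, with 49.8% of the sum in WT_CTCF and 49.0% in MUT_CTCF. Pcgf6 held 15.6 ± 0.493% in WT_CTCF and 16.5 ± 0.135% in MUT_CTCF (SD, n = 2), and Bmi1 held 3.01 ± 0.138% and 2.82 ± 0.285%. The level of Bmi1 was 0.195 and 0.191 times that of Pcgf6 in WT_CTCF, and 0.158 and 0.185 times in MUT_CTCF. The shares were not tested.

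**Figure D3:**
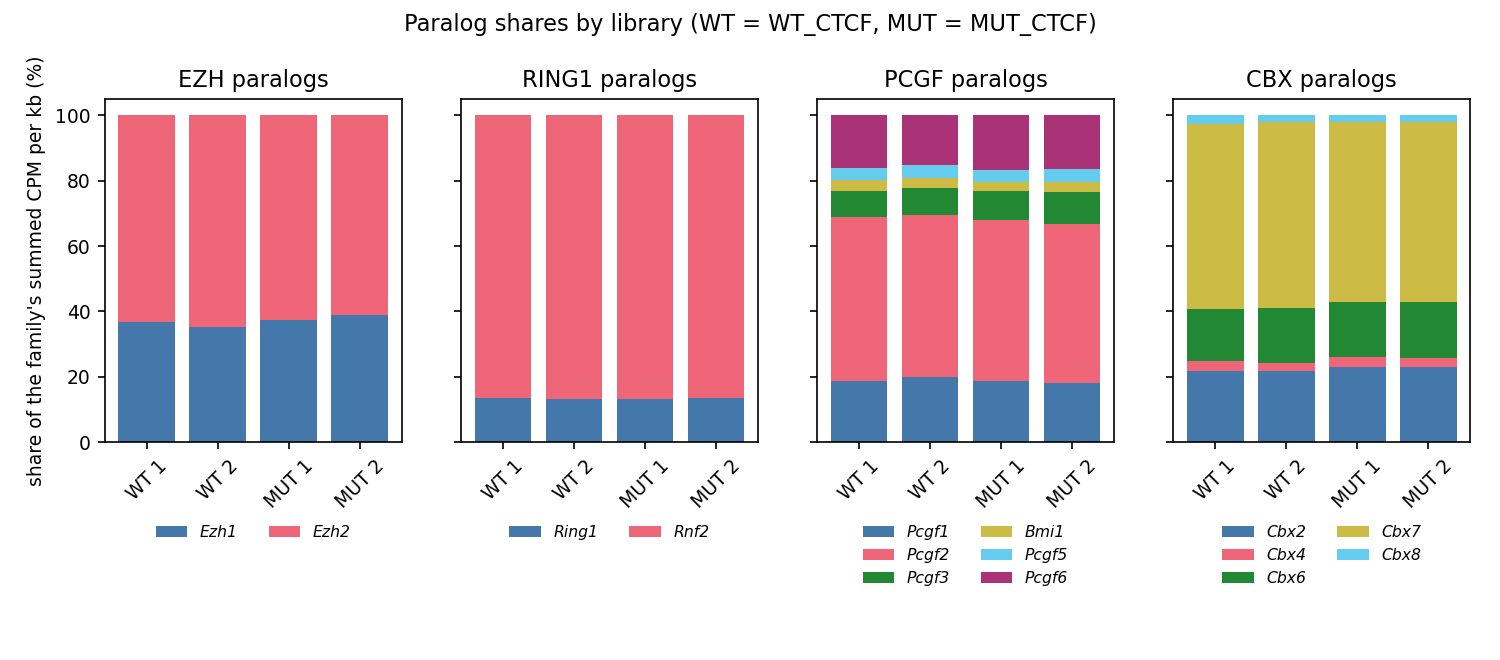
Share of each paralog in the summed level (CPM per kb of exon union, in %) of its family, 1 bar per library. Ezh2, Rnf2, Pcgf2 and Cbx7 hold the largest share of their families in all 4 libraries.

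The genes of proteins that work with the 10 subunits were counted in the same fit. Of 10 PRC2 partners, such as the Polycomb-like proteins, and 24 PRC1 partners, which include the other CBX and PCGF genes, none passed edgeR's quasi-likelihood test in either direction, nor edgeR's exact test. DESeq2 passed none either, but gave no adjusted p for 5 and 8 of them. At an unadjusted p under 0.05 there were 2 PRC2 partners and 5 PRC1 partners, against 15.3% of all tested genes. Their median log2 fold changes were -0.036 and 0.025. Among PRC2 partners the smallest p-values were those of Phf19 (log2 fold change 0.66, adjusted p = 0.130), whose counts were low at 105 and 87 in WT_CTCF and 166 and 138 in MUT_CTCF, of Epop (-0.070, adjusted p = 0.175) and of Mtf2 (-0.10, adjusted p = 0.429). Among PRC1 partners they were those of Auts2 (0.20, adjusted p = 0.150), Pcgf3 (0.12, adjusted p = 0.201) and Dcaf7 (-0.084, adjusted p = 0.240).

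A list of 8 genes held the lysine 27 demethylases and the complex that removes ubiquitin from H2A, with its cofactors and associated factors. Of these, 1 rose, none fell and 7 did not pass, where 1.56% of all tested genes rose. Kdm6b, the gene of a demethylase of lysine 27, had 4930 and 5169 counts in WT_CTCF and 5815 and 5582 in MUT_CTCF. Both MUT_CTCF libraries were above both WT_CTCF libraries, as in 22.3% of all tested genes. Its log2 fold change of 0.17, with a standard error of 0.042, passed edgeR's quasi-likelihood test (adjusted p = 0.0126). The call was lost without WT_CTCF replicate 1 (0.13, adjusted p = 0.292), without MUT_CTCF replicate 1 (0.15, adjusted p = 0.406) and without MUT_CTCF replicate 2 (0.19, adjusted p = 0.356). Kdm6b shares 286 exon bases with the antisense transcript 1700064E03Rik. The next smallest p-values in this list were those of Bap1 (-0.086, adjusted p = 0.241), the enzyme that removes ubiquitin from H2A, and Foxk2 (0.061, adjusted p = 0.502).

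The 12 trithorax group genes are mostly those of complexes that methylate lysine 4 of histone H3 and act against Polycomb. None passed edgeR's quasi-likelihood or exact test. An unadjusted p under 0.05 was found for 5, of which 4 were lower in MUT_CTCF, against 15.3% of all genes in either direction. MUT_CTCF lay below WT_CTCF in 7 genes, above it in 1 and overlapped it in 4, where 22.3% of all genes lay below and 22.3% above. DESeq2 passed none of the 12 genes and gave no adjusted p for 2. Their median log2 fold change was -0.055. The smallest p-values belonged to Ash2l (-0.082, adjusted p = 0.0913), Rbbp5 (-0.091, adjusted p = 0.184) and Kmt2d (0.096, adjusted p = 0.217).

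A list of genes known as Polycomb targets, mostly lineage regulators, had a median level of 0.434 CPM per kb over the 39 genes with a row in the table and 0.735 over the 28 that could be tested, against 17.4 for the 10 subunits. Tbx3, at 84.9, and Cdkn2a, at 24.9, were exceptions above the median of the subunits, and Tbx3 was above every subunit. Of the 28, 1 fell, none rose and 27 did not pass, with a median log2 fold change of -0.0039. The 1 that fell was Cdx2, a trophectoderm regulator, with 274 and 298 counts in WT_CTCF and 133 and 159 in MUT_CTCF. Its log2 fold change of -0.97 had a standard error of 0.18 (adjusted p = 0.000227), and it was, without MUT_CTCF replicate 1 -0.84 (adjusted p = 0.311) and without MUT_CTCF replicate 2 -1.1 (adjusted p = 0.225). Next came Msx2 (-0.35, adjusted p = 0.0705) and Gata6 (0.95, adjusted p = 0.0733), an endoderm regulator with 57 and 50 counts in WT_CTCF and 99 and 108 in MUT_CTCF.

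**Figure D4:**
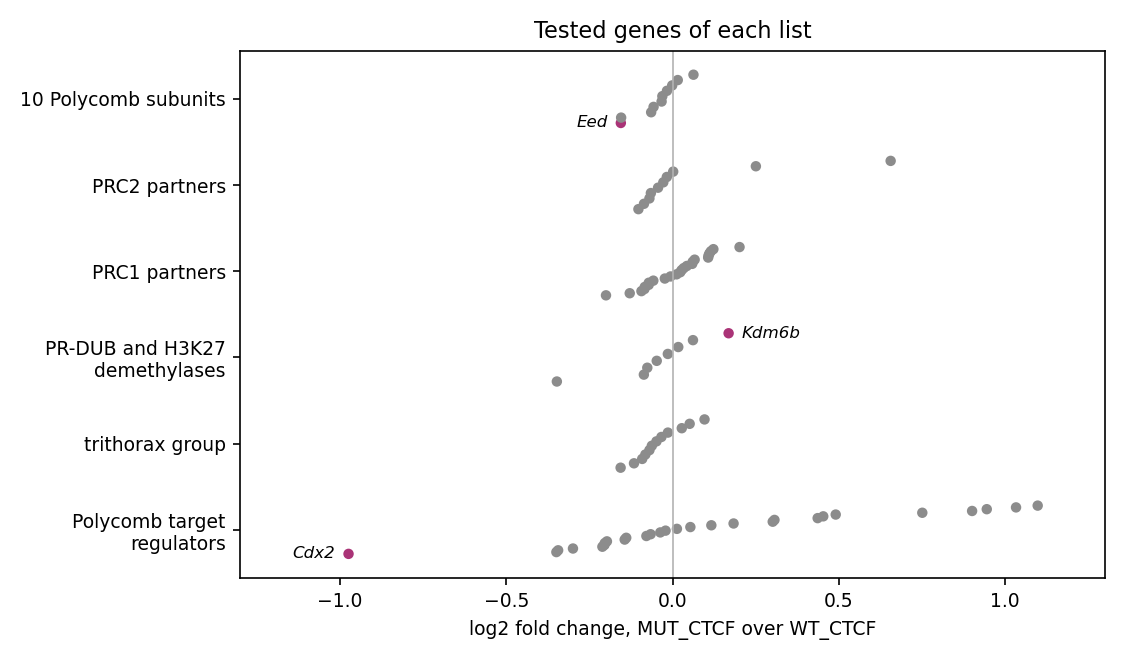
Log2 fold change of MUT_CTCF over WT_CTCF for each tested gene of the 10 Polycomb subunits and 5 other lists. Purple points have an adjusted p under 0.05 by edgeR's quasi-likelihood test, and they are Eed, Kdm6b and Cdx2.

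Of the marker genes of the cell state, Sox2 rose by 0.095 on the log2 scale (adjusted p = 0.0358) and Dppa5a fell by 0.099 (adjusted p = 0.0157). They were the only 2 of the 10 mESC markers that passed edgeR's quasi-likelihood test, against 3.17% of all tested genes. DESeq2 passed both (adjusted p = 0.0205 for Sox2 and 0.0182 for Dppa5a), and edgeR's exact test passed neither. Sox2 lost the call with any library left out (0.082 to 0.11, adjusted p from 0.200 to 0.387). Dppa5a lost it without WT_CTCF replicate 1 (-0.054, adjusted p = 0.586), without MUT_CTCF replicate 1 (-0.099, adjusted p = 0.444) and without MUT_CTCF replicate 2 (-0.10, adjusted p = 0.444). No fibroblast or primitive endoderm marker passed edgeR's quasi-likelihood or exact test, nor DESeq2, which gave no adjusted p for 6 tested fibroblast and 3 tested primitive endoderm markers. At an unadjusted p under 0.05 there were 2 of 7 tested fibroblast markers and 2 of 8 tested primitive endoderm markers, against 15.3% of all tested genes. The smallest p-values were those of Fbln1 (0.18, adjusted p = 0.109), Col3a1 (-1.5, adjusted p = 0.288) and Thy1 (0.20, adjusted p = 0.334) among the first, and Lamb1 (0.18, adjusted p = 0.0899), Sparc (-0.090, adjusted p = 0.108) and Dab2 (-0.21, adjusted p = 0.644) among the second. What part the cell state had in the values of Eed was not tested.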

How the data were processed

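RNA-seq of 4 libraries was used. The authors trimmed the reads (Trim Galore 0.4.4, per the labels), aligned them to mm9 with STAR and counted uniquely mapped reads per gene with HTSeq-count (HTSeq 0.9.1), and these counts were deposited without normalization. The strand setting is not given in the sources used here. A deposited table of the authors' own edgeR comparison holds their fold changes and p-values and was not used.

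Genes were kept by filterByExpr (edgeR 4.0.16, R 4.3.3, minimum count 10), which left 16264 genes with 99.96% of the counts. After TMM scaling, genes were tested with glmQLFit and glmQLFTest on the line alone, with Benjamini-Hochberg adjustment and a threshold of 0.05. The standard error is the log2 fold change divided by the root of F. Normalized counts were brought to the mean effective library size. Replicates differed beyond sampling noise (chi-square per degree of freedom 3.61 and 4.27). A count of 3, the limit that a count of 0 allows, is 0.0732 to 0.0740 CPM, for counting error only. Lengths, places and names came from GENCODE M1 (mm9), which named 37205 of 37620 gene identifiers, and near copies from blastn 2.17.0. RefSeq promoters (GRCm38.p6) were matched by symbol for all 10 members.

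The members and gene lists were chosen with earlier results of these data known. In each other list, the 3 tested genes with the smallest p and every gene past the threshold were named. Counts of calls and fold changes were recomputed with edgeR's exact test, DESeq2 1.42.0, the size factors of DESeq2 within edgeR, library size only, no filter, at least 10 counts in every library, a replicate block, each library left out and, chosen after seeing the data, halved counts. DESeq2 gave no adjusted p for Ring1, Bmi1 and Cdx2, whose DESeq2 values are not used here. The ratios were recomputed only with the longest transcript as length. Even values made up 56.9% to 58.6% of the counts from 2 to 21. The fits were tested on simulated data.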

Additional observations from a re-analysis of the deposited data

How the results depend on the processing

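Eed kept its direction in all 12 alternatives (-0.19 to -0.12 on the log2 scale), which reuse the same libraries. It passed in 6 of them. In the alternatives with all 4 libraries, its adjusted p ran from 0.0121 to 0.269 by the test of each fit. The number of members that fell was 0 with library size only (Eed -0.14, adjusted p = 0.0594), without the filter on low counts (-0.16, adjusted p = 0.269), with each library left out (0 in each) and at the fold change criterion. The other Polycomb genes that rose went from 1 to 0 without the filter, and were 0 to 1 with a library left out. The target regulators that fell went from 1 to 0 with DESeq2, which gave no adjusted p for 26 of the 28 tested, Cdx2 among them, and to 0 without the filter, and were 0 to 1 with a library left out. Genes that rose, 253 of all genes, were 117 with DESeq2, 26 without the filter, 6 to 142 with a library left out, 154 at the fold change criterion and 1238 at an unadjusted p under 0.05. Genes that fell, 262, were 152 with library size only, 3 without the filter, 0 to 102 with a library left out, 58 at the fold change criterion and 1245 at an unadjusted p under 0.05. The cause of these differences was not tested. Without the filter, more genes are adjusted for, and with a library left out, fewer samples are compared.

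The values that turned sign were those of Suz12 with library size only (0.011), with at least 10 counts in every library (0.00037), without WT_CTCF replicate 1 (0.015) and without MUT_CTCF replicate 2 (0.056), of Jarid2 without WT_CTCF replicate 2 (0.0082) and without MUT_CTCF replicate 2 (0.022), of Rnf2 without WT_CTCF replicate 1 (0.0068), of Ring1 without WT_CTCF replicate 1 (0.018), and of Pcgf6 without WT_CTCF replicate 2 (-0.021) and without MUT_CTCF replicate 1 (-0.014). With each library left out, these genes ranged from -0.063 to 0.056 (Suz12), -0.058 to 0.022 (Jarid2), -0.067 to 0.0068 (Rnf2), -0.082 to 0.018 (Ring1) and -0.021 to 0.054 (Pcgf6). With the longest transcript as length, the ratio of Ezh2 to Ezh1 was 2.35 in WT_CTCF and 2.15 in MUT_CTCF, that of Rnf2 to Ring1 was 5.11 in both, and that of Bmi1 to Pcgf6 was 0.148 and 0.131. What replicates of the same number share beyond that number is not given in the sources used here. Their deviations had a correlation of -0.019 over tested genes, which cannot settle it. With the replicate block, the log2 fold change of Eed was -0.16 (adjusted p = 0.0121), 326 genes rose and 372 fell, 1 trithorax gene and 2 target regulators fell, and no other count of calls moved by over 1.5 times. Scaling by library size only moved the median of all genes to 0.016. The 95% intervals of the members were 0.131 to 0.486 wide, which limits the changes that could be seen with 2 libraries per line.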
